A study of Mus musculus with 12 samples.

Results

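The genes described here are 45 genes of the interferon response and of class I antigen presentation, chosen by gene symbol from the 24525 genes in the count tables. All 45 symbols had a row in each table. They fall into 7 interferon regulatory factors, 7 sensors of foreign nucleic acid and their partners, 19 antiviral effectors, 2 genes of the ISG15 system, 7 genes of class I antigen presentation and 3 subunits of the immunoproteasome. Of these, 34 had enough reads for a comparison of genotypes, 9 had too few reads, and 2 had no read in any library.

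The study asked how loss of Ythdf2, a cytoplasmic reader of m6A that promotes decay of methylated mRNA, affects mouse neural stem/progenitor cells (NSPCs). mRNA from NSPC cultures was fragmented by sonication and sequenced without immunoprecipitation as the input of an m6A-seq experiment, in 3 wild-type and 3 Ythdf2-/- libraries. The 6 m6A-immunoprecipitated samples were not analysed here. Both genotypes were C57BL/6, came from E14.5 embryos and were at passage 1, and both were grown in DMEM/F12 with EGF, bFGF, N2 supplement and B27 supplement without vitamin A, with no further treatment. Both were grown as floating neurospheres, a culture that favours dividing progenitors. The Ythdf2-/- embryos came from heterozygous parents whose deletion was made by a ubiquitously expressed Cre acting on LoxP sites around the 5′ UTR and exon 1, so the deletion was in all tissues and not in NSPCs alone. The study's text calls the libraries biological replicates but does not say whether embryos were pooled.

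Interferons are secreted proteins released by cells that detect viral nucleic acid. They act on receptors that signal through JAK kinases and STAT transcription factors, and the STAT complexes bind short DNA elements, ISRE and GAS, in front of interferon-stimulated genes. The products of these genes degrade or trap viral RNA, and the class I pathway displays peptides cut by the proteasome to T cells. Neural progenitors and neurons are known for a low resting level of class I molecules, and double-stranded RNA of the cell itself can feed the same sensors that detect viruses.

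The short DNA elements are shown first, because they are what many members share. Promoter sequences in RefSeq (GRCm38.p6, the assembly also called mm10) were found for 36 of the 45 members, each from 250 bases before the start site to 50 after it. The ISRE core, searched as GAAANNGAAA on both strands, was in 15 of the 36 (41.7%) and in 3.99% of all 27025 genes with such a sequence. The GAS core, searched as TTCNNNGAA, which reads the same on both strands, was in 10 of the 36 (27.8%) and in 9.55% of all genes. Matches of the 2 cores can overlap, as they did in Ifitm3 and Bst2. The 30-base windows below are from 7 members described in detail below, from the most abundant member, B2m, and from 3 members with next to no reads. Capitals mark the core, the sequence follows the gene's own strand, and a core written as TTTCNNTTTC is the ISRE core on the other strand.
Ddx58, ISRE, chr4:40239804-40239833, minus strand: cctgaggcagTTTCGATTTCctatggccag
Gbp2, ISRE, chr3:142620594-142620623, plus strand: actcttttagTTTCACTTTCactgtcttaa
Ifitm2, ISRE, chr7:140955988-140956017, minus strand: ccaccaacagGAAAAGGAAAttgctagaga
Ifitm3, ISRE, chr7:141010706-141010735, minus strand: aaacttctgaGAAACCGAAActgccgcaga
Bst2, ISRE, chr8:71537577-71537606, minus strand: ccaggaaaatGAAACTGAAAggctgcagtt
B2m, ISRE, chr2:122147538-122147567, plus strand: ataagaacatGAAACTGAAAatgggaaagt
Ifit1, ISRE, chr19:34640794-34640823, plus strand: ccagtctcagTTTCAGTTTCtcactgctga
Isg15, ISRE, chr4:156200871-156200900, minus strand: gtaggaaaagGAAACCGAAAcagaaaatag
Oas1a, ISRE, chr5:120907520-120907549, minus strand: tcgggaaatgGAAACTGAAAatctacttcc
Ifit2, GAS, chr19:34550444-34550473, plus strand: catgggagcTTCCTGGAAgaatggataaaa
Irf1, GAS, chr11:53769914-53769943, plus strand: acagcctgatTTCCCCGAAatgatgaggcc
The same core, GAAACTGAAA, was thus found in front of Bst2, of B2m, the most abundant member, and of Oas1a, a member with no read. Each match is a run of letters in a fixed window and not a measured binding site.

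The 6 libraries held 11029827 to 13185778 counted reads. Ythdf2 itself was at 71.8 to 91.3 CPM (reads of a gene scaled to the size of the library, with TMM factors that correct for its composition) in wild type and at 11.1 to 14.6 CPM in Ythdf2-/-, where exons outside the deletion can still give reads. Wild-type replicate 3 stood apart from the other 5 libraries. Its mean Spearman correlation with them was 0.9, against 0.962 to 0.97 for the others, and it lay at 103 on the first principal component, where the others lay between -33.4 and -3.86. In that library the summed level of 6 astroglial markers was 7321 CPM against 1269 to 2996 CPM in the other 5, that of 7 neuronal markers was 1904 CPM against 1060 to 1291 CPM, and that of 7 oligodendrocyte lineage markers was 3418 CPM against 1572 to 1901 CPM, with the myelin gene Mbp at 572 CPM against 1.21 to 8.84 CPM. The 10 neural stem and progenitor markers summed to 5607 CPM there and to 8045 to 9224 CPM elsewhere, and most of the sum came from Vim, Fabp7, Nes and Slc1a3. For 6 of the 10, among them Sox2, Sox9 and Hes5, wild-type replicate 3 was the highest library, so the sum does not describe every marker. Reads of Y-linked genes were present in wild-type replicates 1 and 2 and Ythdf2-/- replicate 3 (1111, 1638 and 2147 reads) and at 0 or 1 read in the other 3 libraries. Values without wild-type replicate 3, and values within the libraries with and without Y-linked reads, are given beside a number of the results. The part that these differences between libraries play in the results was not tested.

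Most of the program was present at a low level. Averaged over the 6 libraries, 16 members were above 10 CPM, 17 were between 1 and 10 CPM, and 12 were below 1 CPM. Per length of transcript, B2m, the light chain of class I molecules, had the highest level at 118 RPKM (CPM per kilobase), rank 569 of 18534 genes with any read. Irf3, the latent factor that switches on interferon genes, followed at 19.0 RPKM and the class I heavy chain H2-K1 at 18.3 RPKM. The lowest members with any read were Oas2, Mx1 and Oasl2 at 0.0178, 0.0333 and 0.0589 RPKM. The order thus ran from the class I light chain at the top to virus-induced effectors at the bottom.

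**Figure D1:**
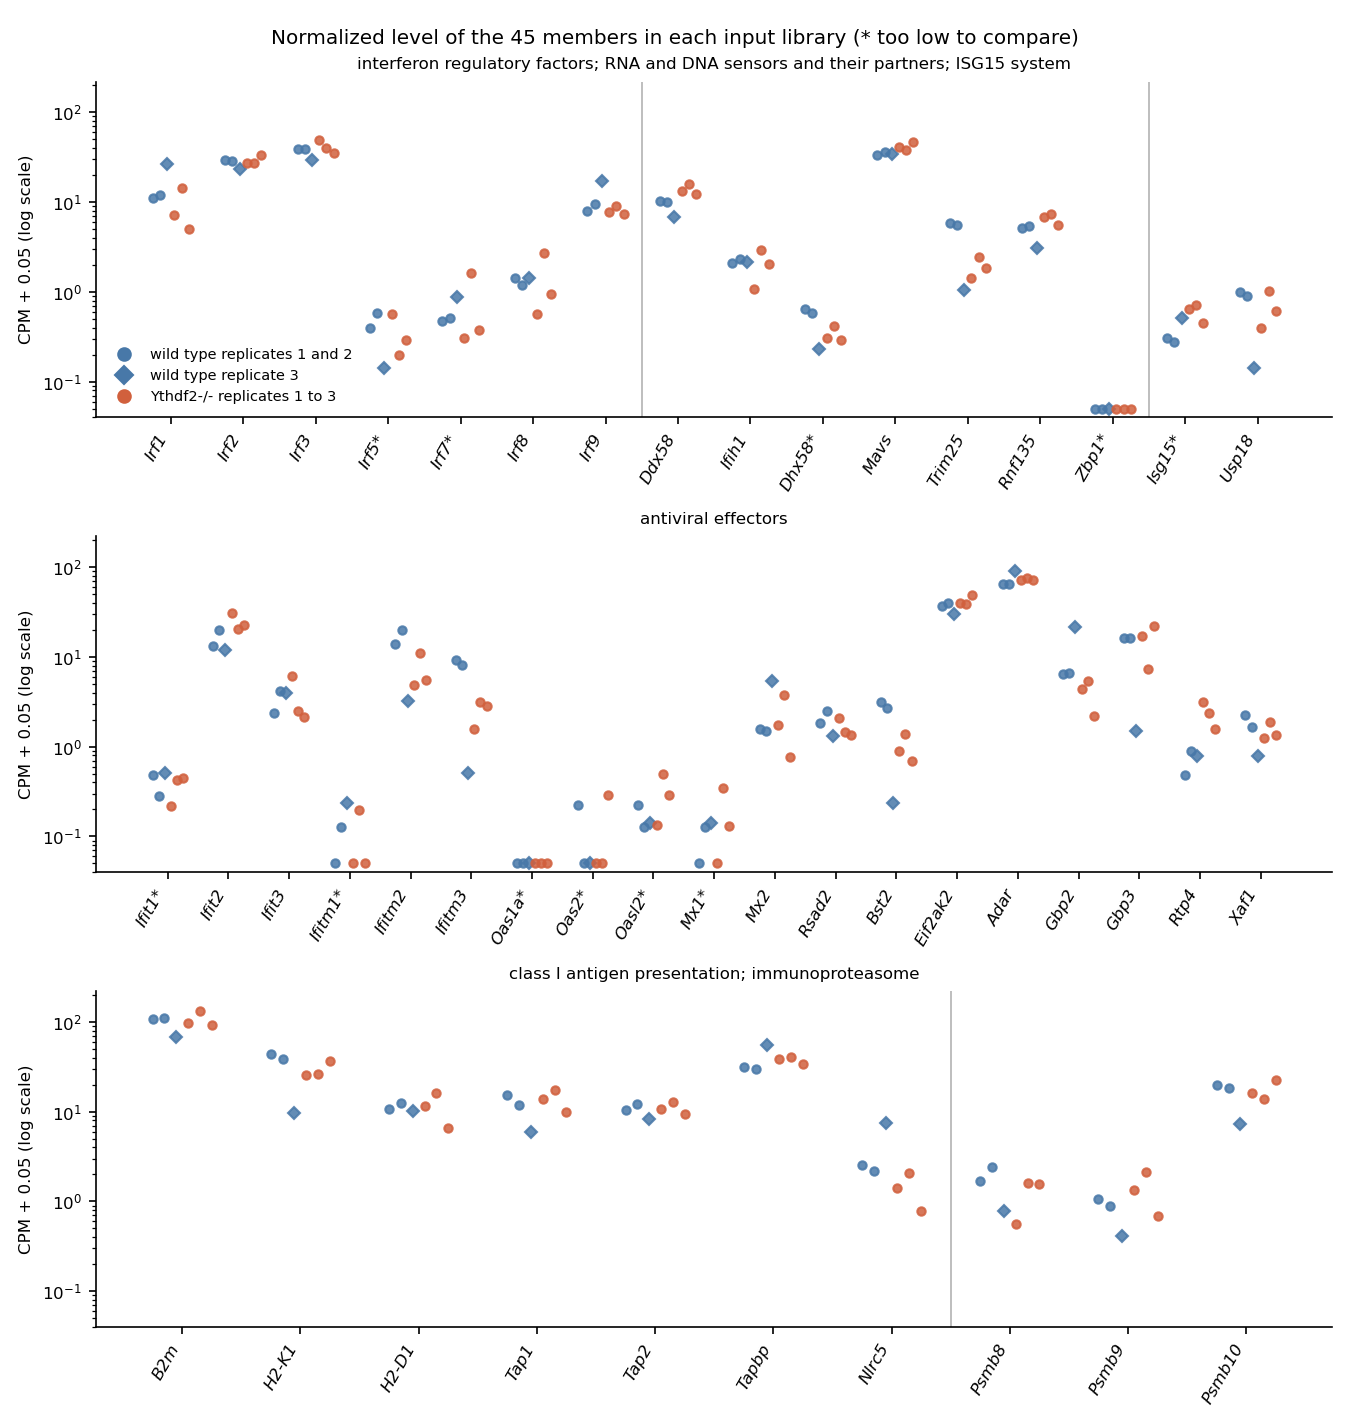
Level of each of the 45 members in each input library, as CPM plus 0.05 on a log axis, with wild type in blue (a diamond for replicate 3) and Ythdf2-/- in red. Asterisks mark the 11 members too low to compare, and points at the bottom edge of the panels are at 0 reads.

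For 11 members the reads were too few for a comparison, which here means that they did not pass edgeR's filter on low counts. Zbp1, a sensor of left-handed nucleic acid, and Oas1a, an oligoadenylate synthetase, had 0 reads in all 6 libraries, which allows a level of up to 0.228 to 0.272 CPM per library (3 reads of the total, counting error only). Oas2 had 0 to 3 reads, Ifitm1 0 to 2, Mx1 0 to 4 and Oasl2 1 to 6. These effectors were therefore near or below the limit of detection in both genotypes. Ifit1, which binds viral RNA ends, had 2 to 5 reads, Dhx58, a regulator of RNA sensing, 2 to 7 and Irf5 1 to 7. Isg15, a ubiquitin-like modifier and one of the strongest interferon-stimulated genes, had 3 to 9 reads, and Irf7, the amplifier of interferon transcription, 3 to 21. The highest of these counts, the 21 reads of Irf7, was in Ythdf2-/- replicate 2, and the other 2 Ythdf2-/- libraries had 3 and 4 reads. Isg15 was at 0.257, 0.229 and 0.457 CPM in wild type and at 0.596, 0.666 and 0.402 CPM in Ythdf2-/-, and the genotypes overlapped. No difference between genotypes was detectable for these 11 genes at this depth.

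The interferons themselves had no reads. All 10 ligand genes looked up (among them Ifnb1, Ifna1 and Ifna2) were at 0 in all 6 libraries. Of 13 receptors and signal transducers, 11 passed the filter, and Ifnlr1 (0 to 4 reads) and Socs1 (1 to 16 reads), named after their values were seen, did not. Jak1, Jak2 and Ifnar1, the 3 with the most reads in that list, were at 164 to 284, 85.9 to 165 and 108 to 131 CPM across the libraries. The sensing adaptors Traf3, Traf6 and Tank were at 49.2 to 92.6, 53.7 to 80.5 and 46.5 to 59.5 CPM. Ifnar1, a receptor chain, and the kinases Jak1 and Jak2 were thus read in every library, next to ligands that were not.

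Comparing the genotypes across all 13112 genes that passed the filter, edgeR's quasi-likelihood test called 0 genes (0% higher and 0% lower) at an adjusted p under 0.05, and the smallest adjusted p among the 34 members tested was 0.9994. At an unadjusted p under 0.05, 3 members were higher in Ythdf2-/- (8.82% of the 34, against 1.81% of all genes tested) and 2 were lower (5.88%, against 1.82%). One gene on each side, Rtp4 and Nlrc5, passed the filter on low counts only through the genotype where it was high, so these counts are no support for a difference. DESeq2 called 0 members, and limma-voom with sample quality weights, which gave wild-type replicate 3 a weight of 0.0901, called 1 member higher and 3 lower, where it called 2.54% and 2.28% of all genes. The median log2 fold change of the 34 members was 0.01, with 17 above 0 and 17 below, and that of all genes was -0.01. The members were spread more widely than genes in general. Their median absolute log2 fold change was 0.29 against 0.16 for all genes, and their median standard error was 0.43 against 0.25. For 18 of the 34 the standard error was larger than the fold change itself. The 3 libraries of each genotype had separate values, with no overlap, for 5 members that were higher in Ythdf2-/- (14.7% of 34, against 5.26% of all genes tested) and for 2 that were lower (5.88%, against 4.92%). Rtp4 is among the 5 and Nlrc5 among the 2, so these counts are no support for a difference either.

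**Figure D2:**
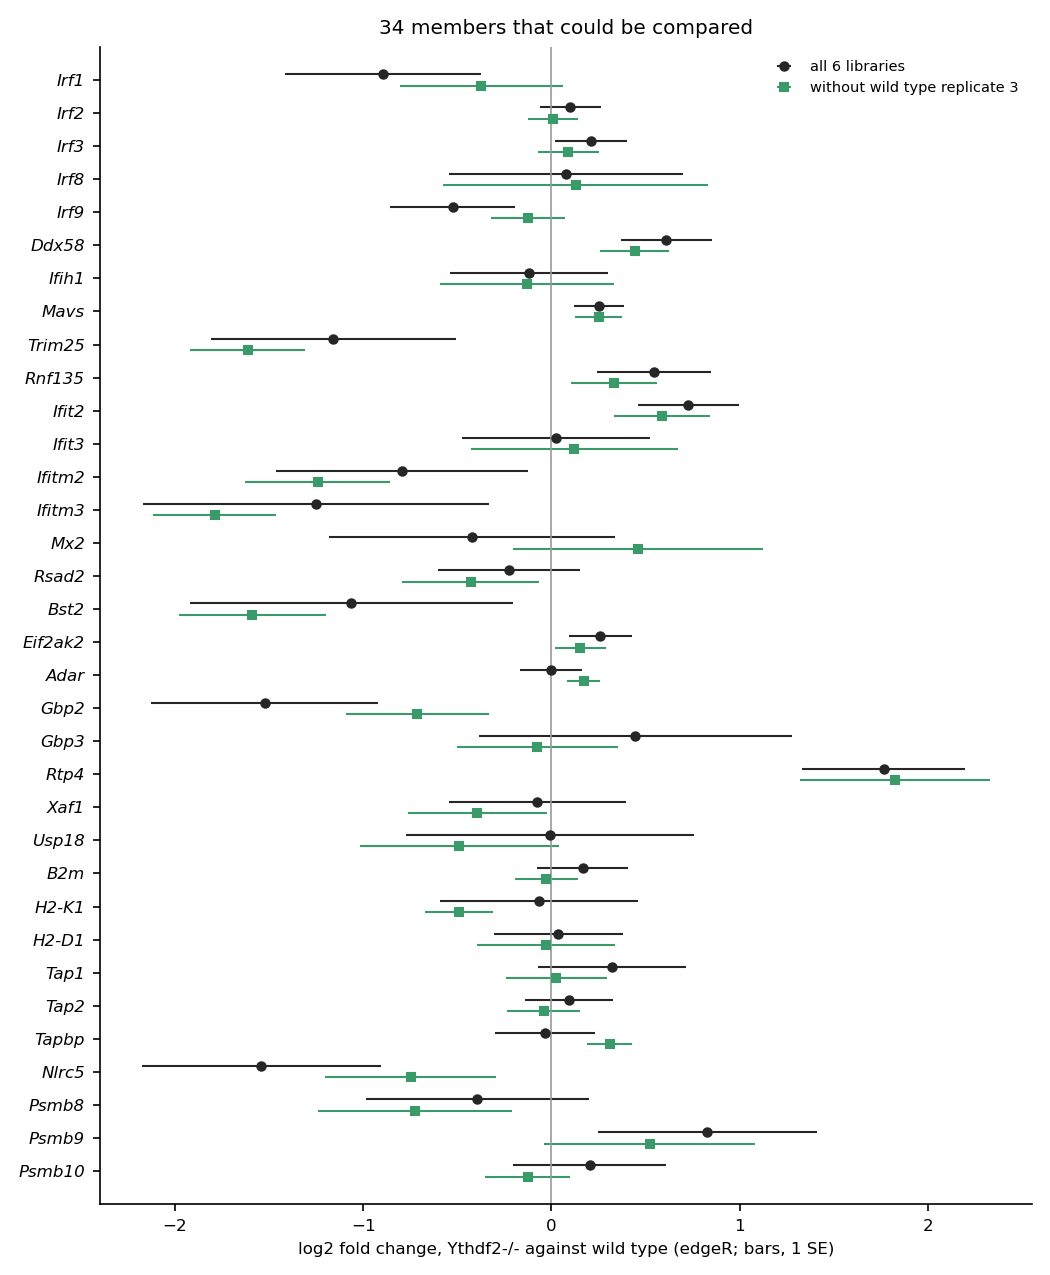
Log2 fold change of Ythdf2-/- against wild type for the 34 members that could be compared, from edgeR, with bars of 1 standard error. Black circles use all 6 libraries and green squares leave out wild-type replicate 3, and the squares of Trim25, Ifitm2, Ifitm3 and Bst2 lie further below 0 than their circles.

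Among the sensors and their partners, 5 of 7 could be compared, and the genotypes were apart for 3 of them, all higher in Ythdf2-/-. Over all genes tested, 5.26% were apart and higher, and 5 genes are too few to set against that share. Ddx58 (RIG-I, chr4:40203777-40239825), the helicase that binds viral RNA ends, was at 10.3, 9.99 and 6.76 CPM in wild-type replicates 1, 2 and 3 and at 13.2, 16.0 and 12.2 CPM in Ythdf2-/- replicates 1, 2 and 3. Every Ythdf2-/- library was above every wild-type library, the lowest being wild-type replicate 3. The means were 9.03 ± 1.97 and 13.8 ± 1.95 CPM (SD, n = 3 each), a 1.53-fold difference, and the log2 fold change was 0.61 ± 0.24 (SE). The unadjusted p in edgeR's test was 0.0432, and without wild-type replicate 3 the log2 fold change was 0.44 with a p of 0.0503.

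Mavs (chr2:131234063-131248025), the mitochondrial adaptor on which RIG-I and MDA5 signal, was at 33.3, 36.2 and 34.5 CPM in wild type and at 40.5, 37.8 and 46.0 CPM in Ythdf2-/-. The groups did not overlap, and the gap between the nearest libraries was 36.2 against 37.8 CPM. Its log2 fold change of 0.25 ± 0.13 (SE) was nearly the same without wild-type replicate 3, where it was also 0.25. Rnf135 (Riplet, chr11:80183869-80199755), a ubiquitin ligase that activates RIG-I, was at 5.045, 5.34 and 3.02 CPM against 6.82, 7.32 and 5.47 CPM. The groups were apart by a narrow gap, 5.34 against 5.47 CPM, and the log2 fold change was 0.55 ± 0.30 (SE), and 0.33 ± 0.23 without wild-type replicate 3. The unadjusted p of Mavs and Rnf135 in edgeR's test was 0.102 and 0.119. The study lists Rnf135 among genes with raised mRNA and m6A levels, so its order here is no independent support.

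The other pair of this group did not show that order. Ifih1 (MDA5), the sensor of long double-stranded RNA, was at 2.05, 2.29 and 2.10 CPM in wild type and at 1.02, 2.885 and 2.01 CPM in Ythdf2-/-, with overlap. Trim25 (chr11:88999403-89020294), another ubiquitin ligase of the RIG-I pathway, was at 5.73, 5.57 and 1.005 CPM in wild type and at 1.36, 2.37 and 1.77 CPM in Ythdf2-/-. Wild-type replicates 1 and 2 were above all Ythdf2-/- libraries and wild-type replicate 3 below all of them, so the groups overlapped. The log2 fold change of Trim25 was -1.16 ± 0.65 (SE) over all libraries and -1.61 ± 0.31 without wild-type replicate 3. Limma-voom with quality weights gave Trim25 an adjusted p of 0.0395, and over all alternatives its adjusted p ran from 0.0395 to 1.0.

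The 19 antiviral effectors included 13 that could be compared, 5 of them with a log2 fold change above 0 and 8 below, and a median of -0.07. Ifit2 (chr19:34550550-34576534), a tetratricopeptide protein that binds RNA, was at 13.1, 19.7 and 11.97 CPM in wild type and at 30.9, 20.6 and 22.7 CPM in Ythdf2-/-. All Ythdf2-/- libraries were above all wild-type libraries, with 19.7 and 20.6 CPM as the nearest pair. The means were 14.9 ± 4.21 and 24.7 ± 5.46 CPM (SD, n = 3 each), 1.66-fold apart, and the log2 fold change of 0.73 ± 0.27 (SE) had an unadjusted p of 0.0332 in edgeR's test. Without wild-type replicate 3 the value was 0.59 and the unadjusted p 0.0582. Its neighbour on chromosome 19, Ifit3, was at 2.31, 4.12 and 3.93 CPM against 6.05, 2.44 and 2.09 CPM, with overlap. Ifit3 has a near-copy, and how reads that match both were counted was not given in the sources used here.

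Rtp4 (chr16:23520219-23614222), an interferon-induced chaperone of receptor transport, was at 0.428, 0.839 and 0.731 CPM in wild type (5, 11 and 8 reads) and at 3.07, 2.29 and 1.53 CPM in Ythdf2-/- (36, 31 and 19 reads). The groups did not overlap, on small counts. All 3 Ythdf2-/- libraries but only 1 of 3 wild-type libraries were above the 0.822 CPM (before TMM scaling) that the filter asks of at least 3 libraries, so Rtp4 was compared only because it was high in Ythdf2-/-, and its fold change and p are a description. The means were 0.666 ± 0.213 and 2.30 ± 0.770 CPM (SD, n = 3 each), 3.45-fold apart, and the log2 fold change was 1.76 ± 0.43 (SE) with an unadjusted p of 0.00583 in edgeR's test. Leaving out each library in turn kept it between 1.51 and 1.99. Its adjusted p was 0.9994 in edgeR, 0.0434 in limma-voom with quality weights, and between 0.0434 and 1.0 over all alternatives.

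Gbp2 (chr3:142620663-142638008), a guanylate-binding GTPase induced by interferon gamma, was lower in Ythdf2-/-. It was at 6.41, 6.56 and 21.2 CPM in wild type and at 4.34, 5.33 and 2.17 CPM in Ythdf2-/-. The groups did not overlap, and wild-type replicate 3 stood far above the other 2 wild-type libraries. The log2 fold change was -1.52 ± 0.60 (SE) with an unadjusted p of 0.0427 in edgeR's test, and -0.71 ± 0.38 with a p of 0.108 without that library. Gbp3, its relative in the same cluster, showed the opposite order in wild-type replicate 3, at 16.2, 16.1 and 1.46 CPM in wild type and 17.04, 7.32 and 21.8 CPM in Ythdf2-/-, with overlap. Its log2 fold change was 0.45 ± 0.83 (SE), and -0.07 without that library. How reads that match both genes were counted was not given.

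The membrane proteins Ifitm2, Ifitm3 and Bst2 (tetherin), which block entry or release of virus, shared the pattern of Trim25. Ifitm3 (chr7:141009590-141010744) was at 9.15, 8.16 and 0.457 CPM in wild type and at 1.53, 3.11 and 2.81 CPM in Ythdf2-/-. Ifitm2 (chr7:140954837-140959686) was at 13.9, 19.8 and 3.20 CPM against 4.86, 11.02 and 5.47 CPM, and Bst2 (chr8:71534255-71537472) at 3.08, 2.67 and 0.183 CPM against 0.852, 1.33 and 0.643 CPM. In each of the 3 genes, wild-type replicates 1 and 2 were the highest libraries and wild-type replicate 3 was the lowest. Over all libraries the log2 fold changes were -1.25 ± 0.92 (Ifitm3), -0.79 ± 0.67 (Ifitm2) and -1.06 ± 0.86 (Bst2) (SE), with unadjusted p of 0.219, 0.28 and 0.259. Without wild-type replicate 3 they were -1.79 ± 0.33, -1.24 ± 0.38 and -1.59 ± 0.39, with unadjusted p of 0.00135, 0.0173 and 0.00614 and adjusted p of 0.151, 0.233 and 0.19 in edgeR. Limma-voom with quality weights gave adjusted p of 0.0498 for Ifitm3 and 0.0493 for Ifitm2, the low ends of ranges that reached 1.0 over all alternatives. Ifitm2 and Ifitm3 are close in sequence, and how the counting treated reads that match both was not given in the sources used here.

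**Figure D3:**
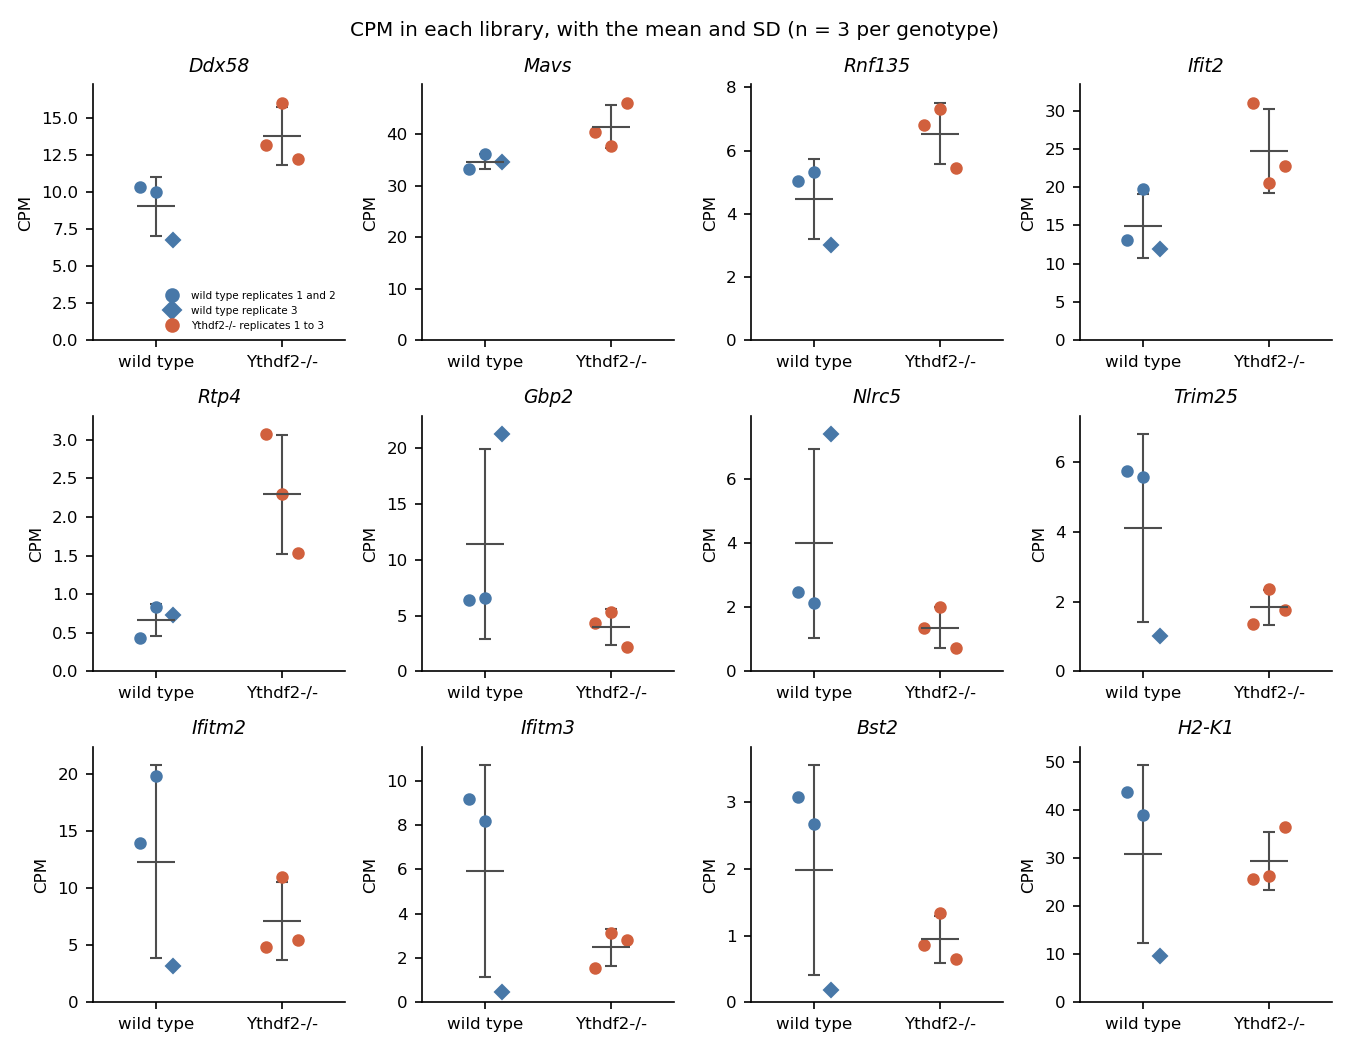
CPM of 12 members in each library, on linear axes from 0, with the mean (bar) and SD (whiskers) of 3 libraries per genotype. In the first 5 panels every Ythdf2-/- point lies above every wild-type point, and in the panels of Trim25, Ifitm2, Ifitm3, Bst2 and H2-K1 the diamond of wild-type replicate 3 lies below all other points.

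A pair of effectors act on double-stranded RNA. Adar, which edits adenosine to inosine in such RNA, was at 64.4, 65.5 and 89.999 CPM in wild type and at 72.0, 75.4 and 72.1 CPM in Ythdf2-/-. Its log2 fold change was 0.00 ± 0.16 (SE), with a sign that depended on the scaling, since it was -0.0029 with TMM factors and 0.01 with total counts. Wild-type replicate 3 alone was above the Ythdf2-/- libraries, and without it the value was 0.17. Eif2ak2 (PKR), the kinase that halts translation on binding such RNA, was at 36.8, 39.3 and 29.9 CPM against 39.3, 39.0 and 48.6 CPM, with a log2 fold change of 0.26 ± 0.17 (SE) and overlap. The other 3 effectors that could be compared had few reads. Mx2 was at 0.723 to 5.30 CPM, Rsad2 (viperin) at 1.28 to 2.44 CPM and Xaf1 at 0.731 to 2.22 CPM, and in all 3 the genotypes overlapped. Usp18, which removes ISG15 from proteins, was at 0.0914 to 0.962 CPM (1 to 13 reads), with a log2 fold change of -0.01 ± 0.76 (SE) that was 0.01 with total counts.

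Of the interferon regulatory factors, 5 of 7 could be compared and none had separate groups or an unadjusted p under 0.05 in edgeR's test. Irf3 was at 39.2, 38.7 and 29.6 CPM in wild type and at 49.6, 39.6 and 35.0 CPM in Ythdf2-/-, and Irf2, which opposes Irf1, at 29.6, 28.5 and 23.6 CPM against 27.2, 27.4 and 33.0 CPM. Their log2 fold changes were 0.21 ± 0.19 and 0.10 ± 0.16 (SE). Irf1, the factor induced by interferon gamma, was at 11.03, 11.8 and 26.4 CPM against 7.07, 14.3 and 4.98 CPM, and Irf9, a DNA-binding part of the complex that acts on ISRE elements, at 7.95, 9.45 and 17.1 CPM against 7.75, 8.88 and 7.32 CPM. In both genes wild-type replicate 3 was the highest library, and the log2 fold changes of -0.90 and -0.53 were -0.37 and -0.12 without it. Irf8, a factor of myeloid cells and microglia, was at 0.511 to 2.66 CPM with its lowest and highest values both in Ythdf2-/-.

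The class I antigen presentation genes were all measurable, 4 with a log2 fold change above 0 and 3 below, with a median of 0.04 that became -0.03 without wild-type replicate 3. B2m (chr2:122147687-122153082) was at 106, 111 and 67.6 CPM in wild type and at 97.6, 131 and 91.4 CPM in Ythdf2-/-, a log2 fold change of 0.17 ± 0.24 (SE). H2-K1 (chr17:33996012-34000619) was at 43.9, 39.0 and 9.69 CPM against 25.7, 26.3 and 36.5 CPM. For H2-K1 wild-type replicates 1 and 2 were again the 2 highest libraries and wild-type replicate 3 the lowest, and the log2 fold change was -0.07 ± 0.53 (SE) over all libraries and -0.49 ± 0.18 without that one (unadjusted p 0.0345, adjusted p 0.267, edgeR). H2-D1, the second classical heavy chain, was at 10.6, 12.6 and 10.1 CPM against 11.4, 16.1 and 6.59 CPM. The counting of reads that match several class I heavy chains was not given, so the split between H2-K1 and H2-D1 is uncertain.

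The peptide transporter genes lie side by side with 2 immunoproteasome genes on chromosome 17, between 34182030 and 34216321. Tap1 was at 15.1, 11.9 and 5.94 CPM in wild type and at 13.9, 17.5 and 9.89 CPM in Ythdf2-/-, and Tap2 at 10.4, 12.1 and 8.22 CPM against 10.7, 12.6 and 9.49 CPM. Both overlapped between genotypes, with log2 fold changes of 0.32 ± 0.39 and 0.09 ± 0.23 (SE), which were 0.03 and -0.04 without wild-type replicate 3. Tapbp (tapasin), which holds empty class I molecules at the transporter, was at 31.0, 30.0 and 55.1 CPM against 38.6, 40.7 and 34.2 CPM. Wild-type replicate 3 alone was above the Ythdf2-/- libraries, and the log2 fold change of -0.03 became 0.31 ± 0.12 without it (unadjusted p 0.04, adjusted p 0.28, edgeR). Nlrc5 (chr8:94434335-94527272), the transactivator of class I genes, was at 2.48, 2.13 and 7.40 CPM against 1.36, 1.997 and 0.723 CPM. The groups did not overlap, by a gap of 2.13 to 1.997 CPM, and the log2 fold change was -1.54 ± 0.63 (SE) with an unadjusted p of 0.0492 in edgeR's test, and -0.75 with a p of 0.151 without wild-type replicate 3. Nlrc5 passed the filter on low counts only through the wild-type libraries. Its fold change and p are therefore a description. The values of B2m, Tap1 and Tap2 overlapped between genotypes.

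The 3 immunoproteasome subunits, which replace constitutive catalytic subunits after exposure to interferon, were set against the subunits they replace in ratios of RPKM. Psmb8 was at 1.16%, 1.76% and 0.814% of Psmb5 in wild type and at 0.455%, 1.31% and 1.42% in Ythdf2-/-. Psmb9 was at 0.635%, 0.530% and 0.302% of Psmb6 against 0.955%, 1.57% and 0.489%, and Psmb10 at 6.84%, 6.06% and 3.54% of Psmb7 against 5.93%, 5.55% and 8.68%. The immune form was thus a small share of each pair in every library, largest for Psmb10, and each ratio overlapped between genotypes. The log2 differences, Ythdf2-/- minus wild type, were -0.33, 0.95 and 0.32, and an exact two-sided permutation test gave p of 0.7, 0.3 and 0.6 (0.7 for each after adjustment over 3 ratios), where 0.1 is the smallest p that 3 against 3 libraries can give. Without wild-type replicate 3 the Psmb10 difference was 0.034, and leaving out single libraries moved the Psmb9 difference between 0.55 (without Ythdf2-/- replicate 2) and 1.39 (without Ythdf2-/- replicate 3). Psmb8 and Psmb9 rest on 6 to 31 and 4 to 28 reads per library and Psmb10 on 80 to 280. The Psmb8 difference changed sign, to 0.20, without Ythdf2-/- replicate 1, the library with 6 reads.

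**Figure D4:**
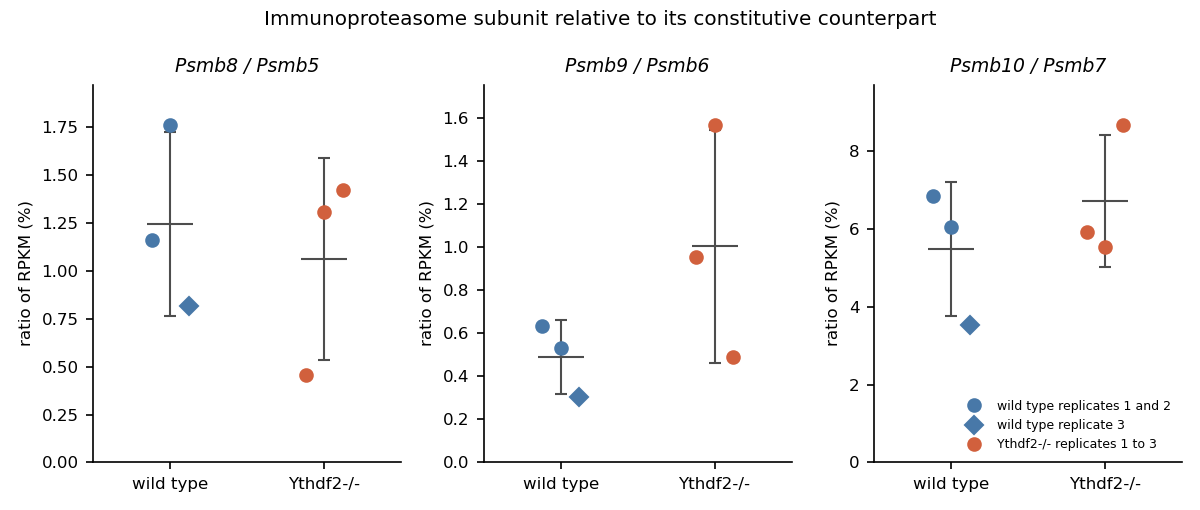
Ratio of each immunoproteasome subunit to the constitutive subunit it replaces, in percent of RPKM per library, with the mean and SD of 3 libraries per genotype. The axes start at 0, and the points of the genotypes overlap in all 3 panels.

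Wild-type replicate 3 was the lowest of the 6 libraries for 20 of the 34 members (58.8%), where it was the lowest for 34.5% of all genes tested, and the highest for 7 (20.6%, against 33.8%). The 20 included 3 of 5 sensors, 8 of 13 effectors, 4 of 7 class I genes and 2 of 3 immunoproteasome subunits. The 7 were Irf1, Irf9, Mx2, Adar, Gbp2, Tapbp and Nlrc5. Leaving that library out, 0 members passed an adjusted p under 0.05 in edgeR (2 of 13283 genes did, 0.0151%), 2 members were higher at an unadjusted p under 0.05 (5.88%, against 8.03% of all genes) and 5 were lower (14.7%, against 8.58%). The 5 were Trim25, Ifitm2, Ifitm3, Bst2 and H2-K1, and the 2 were Rtp4 and Tapbp. The median of the members was then -0.04, beside 0.01 for all genes. Without that library the genotypes did not overlap for 7 members that were higher (20.6%, against 18.8% of all genes) and 8 that were lower (23.5%, against 20.1%).

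Within the 3 libraries without Y-linked reads, wild-type replicate 3 was compared with Ythdf2-/- replicates 1 and 2, and within the 3 with such reads, wild-type replicates 1 and 2 were compared with Ythdf2-/- replicate 3. In this split 9 members were higher in Ythdf2-/- in both sets (26.5%, beside 22.6% of all genes tested), 8 were lower in both (23.5%, beside 23.9%), and 17 went opposite ways (50%, beside 53.5%). Differences on the log2(CPM + 0.5) scale were 1.05 without and 0.25 with Y-linked reads for Ddx58, 1.04 and 0.49 for Ifit2, 1.36 and 0.86 for Rtp4, 1.11 and 0.069 for Rnf135, and 0.18 and 0.40 for Mavs. Those of Gbp2 were -2.03 and -1.39 and those of Nlrc5 -1.87 and -1.20. For all of these genes the directions follow from groups that do not overlap. Gbp3 and Psmb10, whose groups overlap, were also higher in both sets. Gbp3 was at 2.58 without and 0.42 with Y-linked reads, and Psmb10 at 0.98 and 0.23. Ifitm3 was at 1.501 without and -1.46 with Y-linked reads, Ifitm2 at 1.09 and -1.52, Bst2 at 1.21 and -1.56, and Trim25 at 0.62 and -1.44. The direction of these 4 genes therefore depended on the set. Of the 17 members with opposite directions, 15 were higher in Ythdf2-/- without Y-linked reads and lower with them, the class I genes B2m, H2-K1, H2-D1, Tap1 and Tap2 among them. Over all genes tested this was the direction of 3590 of the 7018 with opposite directions. With presence of Y-linked reads as a second term over all 6 libraries, edgeR called 0 members, and 5 were higher and 4 lower at an unadjusted p under 0.05 (14.7% and 11.8%, against 5.23% and 5.72% of all genes), Ddx58, Ifit2, Eif2ak2, Rtp4 and Psmb10 against Irf1, Irf9, Gbp2 and Nlrc5. Rtp4 and Nlrc5 passed the filter only through the genotype where they were high, so these counts are no support for a difference. Each set holds a single library of one genotype, so no test was made within it, and the presence of Y-linked reads cannot be told apart from other differences between these libraries.

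**Figure D5:**
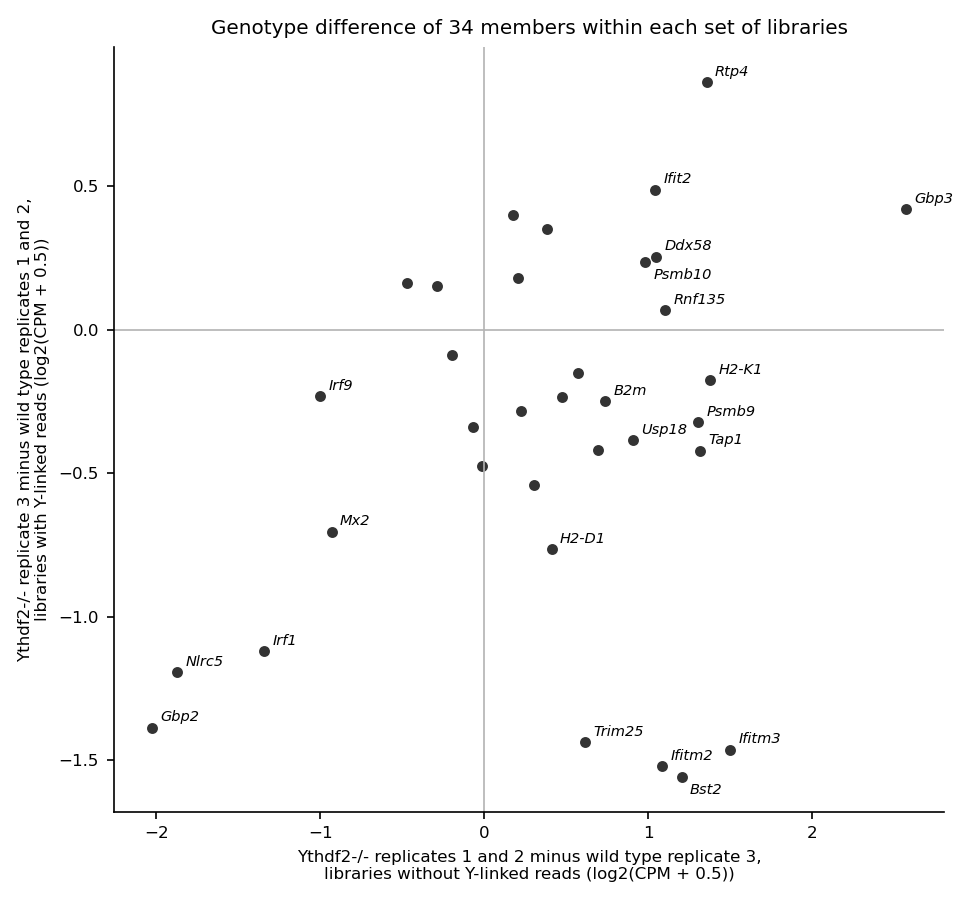
Genotype difference of the 34 members within the libraries without Y-linked reads (x axis) and with them (y axis), Ythdf2-/- minus wild type in log2(CPM + 0.5). Gbp3, Rtp4, Ifit2, Ddx58 and Psmb10 are among those at the upper right. Gbp2, Nlrc5 and Irf1 are among those in the lower left, and Trim25, Ifitm2, Ifitm3 and Bst2 among those in the lower right.

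Cells of the immune system were near the limit of detection. Of 14 microglia and macrophage markers, 4 (Ptprc, C1qa, C1qb and C1qc) were at 0 in all libraries and 3 could be compared. The 14 markers summed to 7.35 to 8.997 CPM in wild type and to 6.13 to 7.07 CPM in Ythdf2-/-, ranges that did not overlap, and most of the sum came from Cd68 and Mpeg1. Of all genes tested, 4.92% were apart in that direction. The 8 endothelial markers summed to 2.01 to 5.95 CPM and 3.54 to 4.44 CPM, with wild-type replicate 3 the lowest. The 8 mesenchymal markers summed to 6.41 to 32.8 CPM in wild type and 3.62 to 5.87 CPM in Ythdf2-/-, and wild-type replicate 3 held the 32.8. The part of these cells in the members' values was not tested, and in a bulk culture fewer cells of a type cannot be told apart from less RNA per cell.

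Other genes of the pathway, from lists of 95 genes of which 94 had a row, were tested in the same fit. Of them 60 could be compared, 33 with a log2 fold change above 0 and 27 below, 0 passed an adjusted p under 0.05 in edgeR, and 5 had an unadjusted p under 0.05, 4 higher (6.67% of the 60, against 1.81% of all genes tested) and 1 lower (1.67%, against 1.82%). In other fits DESeq2 (adjusted p 0.00815) and edgeR with the Y-linked term (0.0485) called Socs3 lower, and limma-voom with quality weights called H2-Ab1 higher and Erap1, a peptide-trimming aminopeptidase named after its values were seen, lower (0.0498 each). Those 5, named after their values were seen, were Ifi27, Pml, H2-T23 and H2-Ab1, which were higher in Ythdf2-/-, and Socs3, which was lower. Ifi27, an interferon-stimulated membrane protein, was at 11.3, 12.96 and 7.04 CPM in wild type and at 14.7, 18.2 and 18.7 CPM in Ythdf2-/-, and Pml, the scaffold of nuclear bodies, at 15.3, 17.2 and 13.1 CPM against 19.4, 24.3 and 21.1 CPM. Socs3, the feedback inhibitor of JAK-STAT signalling, was at 40.4, 59.0 and 475 CPM against 15.2, 15.4 and 3.46 CPM, with wild-type replicate 3 holding by far the highest value. Its log2 fold change was -4.07 ± 1.17 (SE), and -2.13 ± 0.56 without that library (unadjusted p 0.00885, adjusted p 0.199, edgeR). None of these groups overlapped. H2-T23, a non-classical class I chain, averaged 1.49 ± 0.794 CPM in wild type and 3.44 ± 0.551 CPM in Ythdf2-/-, and H2-Ab1, a class II chain, 0.655 ± 0.518 and 2.54 ± 0.748 CPM (SD, n = 3 each). H2-T23 and H2-Ab1 passed the filter on low counts only through Ythdf2-/-, the genotype where they were high. Their values are therefore a description, and the count of 4 higher genes is no support for a difference. By list, the median log2 fold change was 0.07 for 11 receptors and signal transducers, 0.00 for 10 sensing adaptors and kinases, 0.15 for 25 other interferon-stimulated genes, 0.00 for 11 other antigen presentation genes and -0.10 for the 3 constitutive proteasome subunits, against -0.01 for all genes. Without wild-type replicate 3 these medians were -0.0064, -0.03, 0.03, -0.11 and -0.27 in the same order.

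Members with and without an ISRE core overlapped in level and in difference. The 15 members with an ISRE core ranged from 0 to 118 RPKM, with a median of 2.31, and 3 of them (Ifit1, Oas1a and Isg15) were too low to compare. The 21 without it ranged from 0.0589 to 19.0 RPKM, with a median of 4.16, and 4 of them were too low. Among those that could be compared, the median log2 fold change was -0.05 for 12 members with the core and 0.04 for 17 without it. GGACT, the DNA spelling of the commonest m6A sequence, occurred in the longest coding transcript of the 34 members at a median of 1.18 per kilobase, against 1.04 for 12288 genes tested. Rtp4, Ifitm2, Ifitm3, Irf8 and Mx2 had 0 occurrences. Per kilobase Gbp2 had 0.795, Trim25 0.8945, Mavs 0.981, Ifit2 1.05, Ddx58 1.29, Nlrc5 1.58, Rnf135 2.52 and Bst2 2.53. These are counts of letters, and methylation was not measured in the libraries analysed here.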

How the data were processed

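The 6 input libraries were grouped by the genotype in their labels. The authors fragmented mRNA, prepared stranded libraries, used TopHat for alignment (build mm10) and deposited the raw count of each gene. The submitters' processing notes also name Bowtie2 2.2.9, RSEM 1.2.15 and featureCounts without roles. The strand setting and the treatment of reads matching several genes are not given in the sources used here. The deposited expected counts, TPM and FPKM were not tested, because the expected counts summed to 1.97% to 2.4% of the raw counts. Only the deposited gene lengths were used, for RPKM.

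The quasi-likelihood test of edgeR 4.0.16 (robust glmQLFit, TMM scaling, genotype as sole term, R 4.3.3) was applied to the raw counts of the 13112 genes that filterByExpr kept, with Benjamini-Hochberg adjustment over all of them. Alternatives used limma 3.58.1, DESeq2 1.42.0, other scalings and filters, a replicate block, a term for Y-linked reads and leaving out each library. The scripts were tested on simulated data. Python 3.11.15, numpy 2.4.6, pandas 2.3.3 and scipy 1.17.1 did the rest. Libraries held 11029827 to 13185778 counts, and p-values measure only the spread between these libraries. All 45 members were named. Other pathway genes were open to naming only with an adjusted p under 0.05 or as one of the 3 with the highest mean CPM of their list, not all of which are named, and exceptions are marked. The members and lists were chosen with earlier results of these data known. Replicate numbers were not used to pair the libraries in the main fit. The deviations of same-numbered libraries correlated at -0.248, -0.244 and -0.394. Each such pair also differed in the presence of Y-linked reads, so these values cannot exclude a pairing.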

Additional observations from a re-analysis of the deposited data

How the results depend on the processing

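Over all genes, edgeR called 0 higher and 0 lower. DESeq2 called 6 higher and 25 lower, limma-voom with quality weights 333 and 299, the term for Y-linked reads 13 lower, and RLE size factors, no filter, or 10 counts in every library 1 lower each. Leaving out single libraries gave 0 higher and 0 to 2 lower, the 2 without wild-type replicate 3. Members called were 0 in each direction in every fit but limma-voom with quality weights (1 higher and 3 lower). Members higher at an unadjusted p under 0.05 (3) numbered 5 with quality weights, 5 with the Y-linked term, and 1 to 2 without single libraries. Those lower (2) numbered 9 with quality weights (14.7% higher and 26.5% lower of the members in that fit, against 15.5% and 14.4% of all genes), 4 with the Y-linked term, 1 with total counts, 1 with 10 counts in every library, and 0 to 5 without single libraries, the 5 without wild-type replicate 3 and 0 without Ythdf2-/- replicate 1 or 3. With the replicate block they numbered 1 and 0, and 0 members were called; the block left the immunoproteasome differences at -0.33, 0.95 and 0.32. Members whose genotypes did not overlap (7) numbered 7 to 15 without single libraries, 15 without wild-type replicate 3 (44.1%, against 38.9% of all genes) and 13 without Ythdf2-/- replicate 2 (39.4%, against 22.1%). The members' median log2 fold change lay between -0.13 and 0.14 in every fit.

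Of the 34 members, 17 kept their direction in every fit and 17 did not. Quality weights reversed Irf2 (-0.028), Irf8 (-0.78), Mx2 (0.054), Adar (0.15), B2m (-0.12), H2-D1 (-0.14), Tap2 (-0.092), Tapbp (0.31) and Psmb10 (-0.14). The replicate block reversed Irf8 (-0.20), Ifit3 (-0.11), Adar (0.015), Xaf1 (0.016), Usp18 (0.14), H2-K1 (0.13), H2-D1 (-0.045) and Tapbp (0.024). The Y-linked term reversed Irf8 (-0.11), Ifit3 (-0.24), Xaf1 (0.17), Usp18 (0.44), H2-K1 (0.59) and H2-D1 (-0.17). Total counts reversed Adar (0.012) and Usp18 (0.0083), and no filter Adar (0.015). Without single libraries the ranges that crossed 0 were -0.86 to 0.47 (Irf8), -0.49 to 0.20 (Ifih1), -0.59 to 0.29 (Ifit3), -1.16 to 0.46 (Mx2), -0.44 to 0.034 (Rsad2), -0.086 to 0.17 (Adar), -0.074 to 0.80 (Gbp3), -0.39 to 0.30 (Xaf1), -0.49 to 0.38 (Usp18), -0.027 to 0.29 (B2m), -0.49 to 0.27 (H2-K1), -0.29 to 0.31 (H2-D1), -0.041 to 0.23 (Tap2), -0.19 to 0.31 (Tapbp), -0.72 to 0.025 (Psmb8) and -0.13 to 0.44 (Psmb10), and -0.62 to 0.20 for the Psmb8 to Psmb5 ratio. The cause of these changes was not tested. The depth left 11 members too low to compare.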
